A study of Homo sapiens with 5 samples.

Results

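The ERG regions of chromosome 17 were examined by chromosome arm and by window in VCaP cells, a prostate cancer cell line of human origin in which the TMPRSS2-ERG fusion and a mutant p53 are both present. Members were all regions of the chromosome formed by merging overlapping peaks (at least 1 bp) of 2 ERG chromatin immunoprecipitation sequencing (ChIP-seq) lists, which gave 898 of the 16095 ERG regions of the genome (5.58%). The rule divided them by the midpoint of the region into the p arm (before 22.2 Mb, 210 regions), the proximal q arm (25 to 60 Mb, 411 regions) and the distal q arm (60 Mb to the end, 277 regions), and 0 lay between the p arm and the proximal q arm. Regions with peaks from both ERG replicates, termed shared, made up 571 of the 898. These parts are defined by position, but they were chosen with earlier results of these data known. A window from 79 to 80 Mb was singled out for its number of shared regions, so its count is a description.

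All 5 samples of the series came from the same untreated cell line and differed in what was precipitated, namely ERG (2 samples), p53 with the antibody DO-1 (2 samples) or, for the input chromatin, nothing. Peak lists of the 4 immunoprecipitated samples were used. They give positions without read counts or scores, so width is the single property of a peak that could be measured. Positions are hg19, counted from 1, and 5 peaks on chromosome Y lie beyond the end of that chromosome in GRCh38. No sequence or gene annotation of hg19 was used here, so regions are given by position without gene names, and no sequence is shown.

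ERG is a transcription factor of the ETS family, whose members bind DNA at sites with a GGAA core. The gene is active in blood vessel and blood cells and is nearly silent in normal prostate epithelium, where the fusion puts it under the androgen-responsive TMPRSS2 promoter. Much ETS binding lies at promoters and enhancers of active genes. Chromosome 17 is rich in genes and carries ERBB2 and the HOXB cluster on its q arm.

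To ask whether ERG occupied the chromosome evenly, regions per Mb were compared between the parts. ERG peaks were sparser on the p arm than on either part of the q arm in both lists. Replicate 1 had 8.42 peaks per Mb on the p arm, 10.6 on the proximal q arm and 11.8 on the distal q arm. In replicate 2 the densities were 7.12, 8.80 and 9.68 peaks per Mb in the same order. Shared regions numbered 131 on the p arm, 265 on the proximal q arm and 175 on the distal q arm, or 5.90, 7.57 and 8.26 per Mb. The p arm thus held 22.9% of the shared regions on 27.3% of the length, and the distal q arm 30.6% on 26.1%. The order of the 3 parts was the same in each list and in the shared regions.

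The density of shared regions on the p arm was 0.78 times that of the proximal q arm (95% interval 0.63 to 0.96). In the single lists this ratio was 0.79 (0.66 to 0.95) in replicate 1 and 0.81 (0.66 to 0.98) in replicate 2, nearly the same in both lists. Against the distal q arm the ratio for the p arm was 0.71 (0.57 to 0.90). The distal and proximal q arms could not be separated, with a ratio of 1.09 (0.90 to 1.33). Without the window from 79 to 80 Mb the distal q arm fell from 8.26 to 7.04 shared regions per Mb, below the proximal q arm (ratio 0.93, 0.75 to 1.14). The interval for the p arm against this remainder of the distal q arm then included 1 as well (ratio 0.84, 0.66 to 1.07). The intervals are exact, cover counting error only and treat regions as independent, which neighbours may not be. With 2 lists an exact permutation test over samples cannot give a two-sided p below 0.5, so no p-value is given for any comparison.

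**Figure D1:**
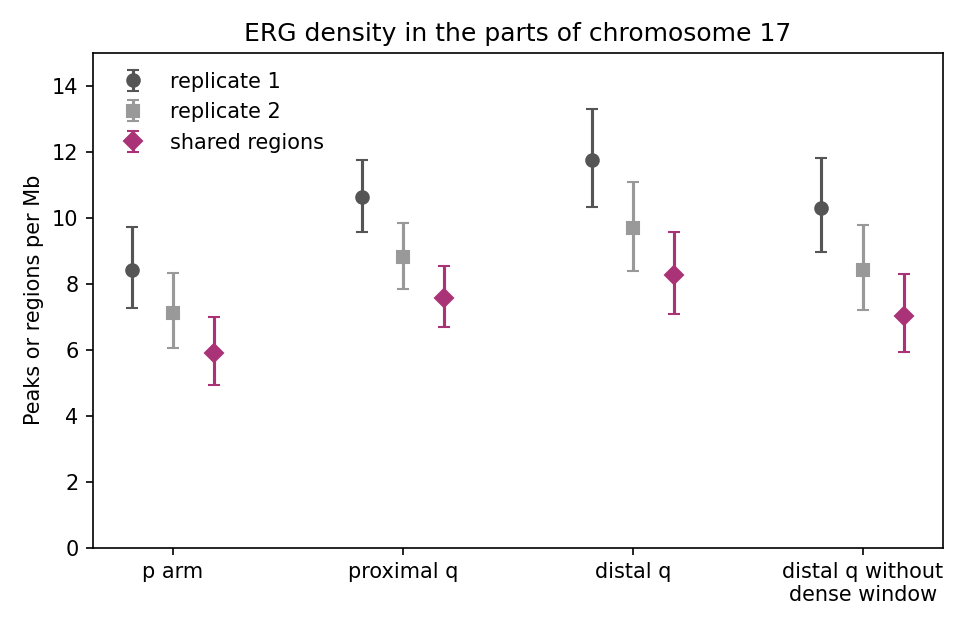
Density of ERG peaks in each replicate and of shared ERG regions (y axis, per Mb) in the parts of chromosome 17 and in the distal q arm without its dense window (x axis). Points are counts divided by length with exact 95% Poisson intervals, and shared regions lie at 5.90, 7.57 and 8.26 per Mb in the parts and at 7.04 once the dense window is left out.

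Windows of 1 Mb varied widely within each part. The median window had 4.5 shared regions on the p arm (n = 22 windows, quartiles 2.25 and 8.75), 7 on the proximal q arm (n = 35, 4.5 and 9.5) and 6 on the distal q arm (n = 21, 4 and 11). By this measure the proximal q arm, not the distal one, ranked first, and the ranges overlapped widely (1 to 19, 0 to 19 and 1 to 33). Counts of peaks in the windows of the 2 lists rose and fell together (Pearson's r = 0.94, Spearman's rho = 0.92 over 78 windows that share the genome build and its gaps, given as a description). Replicate 1 had more peaks than replicate 2 in 52 of these windows, fewer in 13 and as many in 13.

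**Figure D2:**
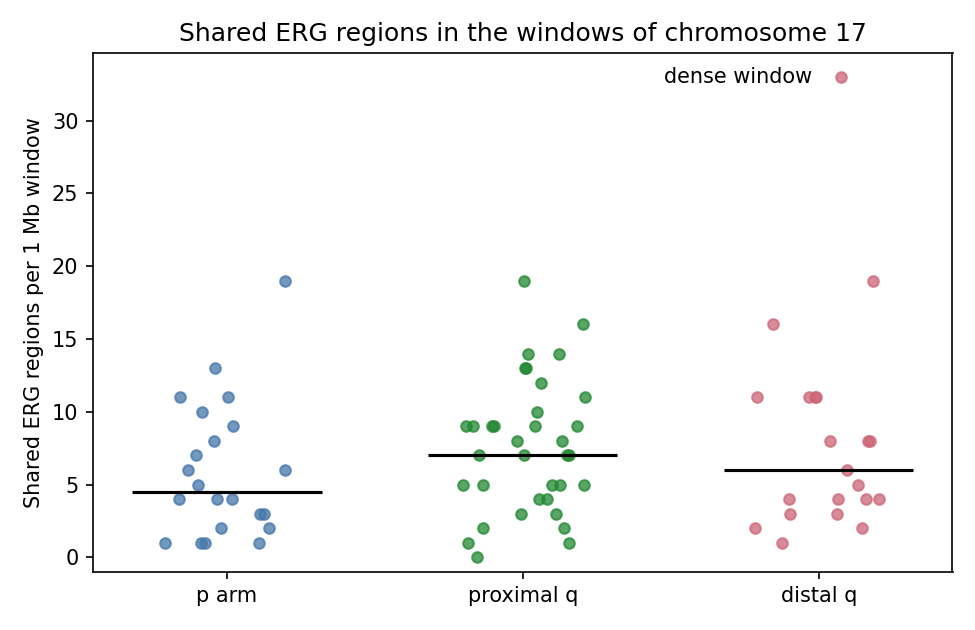
Shared ERG regions (y axis) in each full 1 Mb window of the p arm, proximal q arm and distal q arm (x axis). Each point is a window and lines are medians (4.5, 7 and 6), and the dense window with 33 shared regions stands alone above the next highest, with 19.

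Windows with many shared regions were found in every part. Of the 2187 windows of the genome with at least 1 shared ERG region, 18 had 19 or more (0.823%), and 4 of these were on chromosome 17. The cutoff of 19 is the count of the windows that follow the highest on this chromosome, so 4 of 18 is a description. The window from 79 to 80 Mb had 33, which ranked 2 among the windows of the genome. The 3 others had 19 each, all at rank 13. On the p arm this was the window from 1 to 2 Mb, with 20 peaks in each replicate and 19 of 21 regions shared. On the proximal q arm it was the window from 48 to 49 Mb, with 27 and 20 peaks in replicates 1 and 2 and 19 of 28 regions shared. On the distal q arm it was the window from 80 to 81 Mb, next to the dense one, with 22 and 23 peaks and 19 of 26 regions shared. The windows from 27 to 28 Mb and 73 to 74 Mb followed with 16 shared regions each. The genome-wide median was 3 over the windows with any.

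Long stretches were without ERG peaks. No ERG region of either list lay between 21191717 and 25574431, a stretch of 4.38 Mb that covers the end of the p arm and the start of the q arm, and the regions on its borders were shared (378 bp and 569 bp in replicates 1 and 2 before it, 320 bp and 316 bp after it). This part of a chromosome holds the centromere, where reads are hard to place, and whether any sequence there could give peaks was not tested. Within the arms the longest empty stretch lay on the proximal q arm between 50497011 and 52934371 (2.44 Mb). The longest on the p arm was 1.26 Mb (8287040 to 9548004) and on the distal q arm 0.915 Mb (69420450 to 70335163). The border at 60 Mb fell between regions found in replicate 1 alone, at 59489451 to 59489809 and at 60005023 to 60005394.

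Density changed along each arm. The following blocks of 5 Mb were chosen after their values had been seen. The first 5 Mb of the p arm held 57 of its 131 shared regions (43.5%), or 11.4 per Mb, more than the distal q arm as a whole. Between 10 and 15 Mb there were 12. On the proximal q arm the block from 50 to 55 Mb had 14, and the one at its end, from 55 to 60 Mb, had 17, or 3.40 per Mb. On the distal q arm the blocks from 60 to 80 Mb had 29, 16, 39 and 71 in turn, and the last of these includes the dense window.

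The second question was whether ERG sites recurred between replicates to the same degree along the chromosome. Recurrence differed little between the 3 parts. Shared regions made up 62.4% of the merged regions on the p arm (131 of 210, 95% Wilson interval 55.7% to 68.7%), 64.5% on the proximal q arm (265 of 411, 59.7% to 69.0%) and 63.2% on the distal q arm (175 of 277, 57.4% to 68.6%), beside 58.2% of all ERG regions of the genome. The differences were -2.10 percentage points between the p arm and the proximal q arm (Newcombe interval -10.2 to 5.77), -0.796 between the p arm and the distal q arm (-9.46 to 7.76) and -1.30 between the distal and proximal q arms (-8.64 to 5.93). The intervals of these differences are wide, so equal recurrence is not shown.

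Each list gave the same picture. Of the replicate 1 peaks, 70.1% on the p arm, 71.5% on the proximal q arm and 70.7% on the distal q arm overlapped a replicate 2 peak. Of the replicate 2 peaks, 85.4%, 87.0% and 85.9% overlapped a replicate 1 peak in the same order. Regions of 1 replicate alone came mostly from the longer list, replicate 1, with 56 against 23 on the p arm, 106 against 40 on the proximal q arm and 73 against 29 on the distal q arm. Within a list the parts differed by at most 1.57 points. Within a part the lists differed by 15.2 to 15.5 points. There, like numbers of recurring peaks are divided by lists of unequal length (131 of 187 and 135 of 158 on the p arm). The gap between the lists is thus no measure of the spread between replicates.

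Recurrence on chromosome 17 as a whole was above that of the rest of the genome, by an interval without 0 in the merged regions and in replicate 1 and with 0 in replicate 2. Its 571 of 898 shared regions (63.6%, 60.4% to 66.7%) stood against 57.9% of the 15197 regions of the other chromosomes, a difference of 5.71 points (Newcombe interval 2.42 to 8.89). Of 24 chromosomes it ranked 3 by this share, next to chromosome 19 with 63.5%, and 2 by shared regions per Mb. Shares of single chromosomes ran from 31.0% (chromosome Y) to 65.6% (chromosome 21). The intervals given here treat regions as independent and do not measure this spread between chromosomes. In replicate 1 the difference from the other chromosomes was 5.80 points (2.48 to 8.94), and in replicate 2 it was 2.21 points with an interval that included 0 (-0.684 to 4.71).

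Recurrence also varied within the arms, in blocks again chosen after their values had been seen. Small blocks spread more than large parts by counting error alone, so the 2 spreads are not compared. Between 55 and 60 Mb, 17 of 45 regions were shared (37.8%), while 248 of the other 366 regions of the proximal q arm were (67.8%). Both lists contributed regions that the other lacked there, 17 in replicate 1 alone and 11 in replicate 2 alone. In the window from 55 to 56 Mb 2 of 13 regions were shared, with 4 in replicate 1 alone and 7 in replicate 2 alone. Peaks of this block were narrower than those of the rest of the proximal q arm, with a median of 327 bp beside 366 bp (replicate 1) and of 288 bp beside 332 bp (replicate 2). In the first 5 Mb of the p arm 57 of the 76 regions were shared (75%), against 55.2% of the 134 regions in the rest of that arm. The highest share of a 5 Mb block was 78.2% (43 of 55), from 30 to 35 Mb on the proximal q arm. Whether width accounts for these local differences was not tested.

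Peak width was compared next, since broad ERG peaks recurred more often than narrow ones. Median width in replicate 1 was 370 bp on the p arm (quartiles 284 and 501.5), 362.5 bp on the proximal q arm (282.75 and 505.25) and 377 bp on the distal q arm (303 and 497). In replicate 2 the medians were 307.5 bp, 329.5 bp and 316 bp. The order of the parts changed between the lists, since the proximal q arm had the lowest median in replicate 1 and the highest in replicate 2. Medians of the parts spanned 14.5 bp in replicate 1 and 22 bp in replicate 2. Within each part the median of replicate 1 was the higher, by 33 bp to 62.5 bp. No full order of the parts by width thus held in both lists, although the p arm lay below the distal q arm in each.

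The length covered by ERG peaks was computed as well. Peaks covered 3.67 kb per Mb on the p arm, 4.43 on the proximal q arm and 5.02 on the distal q arm in replicate 1. The values in replicate 2 were 2.59, 3.24 and 3.52 kb per Mb. The order was that of the peak counts.

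Recurring peaks were wider than the others in each part and each list. In replicate 1 the medians of recurring and other peaks were 398 bp and 296.5 bp on the p arm, 409 bp and 284 bp on the proximal q arm, and 423.5 bp and 336 bp on the distal q arm. In replicate 2 they were 313 bp and 232 bp, 352 bp and 236 bp, and 333.5 bp and 227 bp. The ratio of these medians ran from 1.26 on the distal q arm to 1.44 on the proximal q arm in replicate 1, and from 1.35 to 1.49 in replicate 2.

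Recurrence was then compared within classes of equal width, using 5 classes of width of the chromosome 17 peaks of each list, each holding a like number of them. Among replicate 1 peaks of 215 to 273 bp, 45.0% recurred on the p arm, 43.9% on the proximal q arm and 53.7% on the distal q arm. Among those of 549 to 1332 bp, 87.8%, 94.9% and 90.5% did. In replicate 2 the shares rose from 66.7%, 71.0% and 65.1% in the narrowest class to 100%, 98.5% and 94.4% in the widest. Of the 30 differences between a pair of parts within a class, 1 had a Newcombe interval without 0. This gap, picked after all classes of both lists had been seen, was in the middle class of replicate 1 (334 to 416 bp), where 34 of 61 peaks recurred on the distal q arm (55.7%, 43.3% to 67.5%) and 51 of 66 on the proximal q arm (77.3%, 65.8% to 85.7%), a difference of 21.5 points (5.13 to 36.6). No such gap was seen in the middle class of replicate 2, where the shares were 92.1% and 92.9%.

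**Figure D3:**
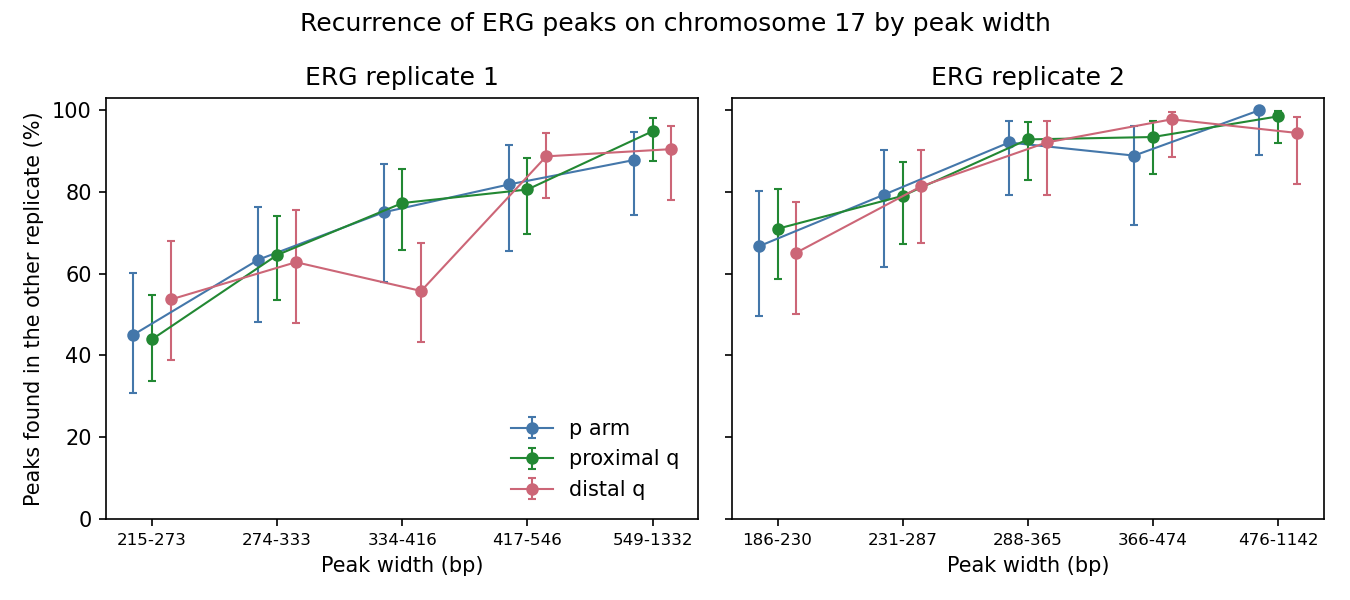
Percent of ERG peaks of chromosome 17 that overlapped a peak of the other replicate (y axis) by peak width in 5 classes (x axis, bp), for the p arm (blue), proximal q arm (green) and distal q arm (red) in replicate 1 (left) and replicate 2 (right). Points are shares with 95% Wilson intervals, and in replicate 1 shares of the parts lie between 43.9% and 53.7% in the narrowest class and between 87.8% and 94.9% in the widest.

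Chromosome 17 was also set beside the other chromosomes within these classes. In the narrowest class of replicate 1, 46.6% of its peaks recurred (39.1% to 54.3%) and 37.3% of those elsewhere did (35.7% to 39.0%). In the next class the shares were 63.8% (56.2% to 70.8%) and 54.7% (52.8% to 56.6%). The middle class had the opposite order (68.6% and 72.8%), and the 2 widest had 84.0% beside 82.7% and 91.9% beside 90.7%. In replicate 2 the shares from the narrowest to the widest class were 68.1%, 79.9%, 92.4%, 94.0% and 97.8% on chromosome 17, and 63.5%, 80.4%, 88.6%, 95.1% and 97.8% elsewhere. Only in the narrowest class was chromosome 17 above the other chromosomes in both lists. The intervals of that class overlapped in replicate 2 (59.9% to 75.3% and 61.5% to 65.4%). Median widths were 368.5 bp on chromosome 17 and 350 bp elsewhere in replicate 1, with 316 bp and 306 bp in replicate 2.

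Peaks of a shared region overlap by definition, so some closeness of their positions was fixed in advance. Over the 561 shared regions with 1 peak of each list, midpoints were a median of 32 bp apart, with a 90th percentile of 129.5 bp. The medians were 29.5 bp on the p arm, 37 bp on the proximal q arm and 30.5 bp on the distal q arm. The stretch common to both peaks made up a median of 77.1%, 73.1% and 74.1% of the region in the same order. The replicate 1 peak was the wider in 423 of the 561 (75.4%), and the median ratio of widths rose from 1.08 on the p arm to 1.18 on the proximal q arm and 1.24 on the distal q arm. On the other chromosomes the ratio was 1.18.

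The broadest shared regions, ranked by the narrower of their replicate peaks, lay on the q arm. Its proximal and distal parts held 46.4% and 30.6% of all shared regions of the chromosome. First was a region of the distal q arm at 66507847 to 66509115, with peaks of 1255 bp in replicate 1 and 1142 bp in replicate 2, which ranked 24th among the shared regions of the genome. It was followed on the distal q arm by regions at 73266603 to 73267667 (1065 bp and 966 bp), 74722334 to 74723469 (1136 bp and 947 bp), 62502252 to 62503195 (904 bp and 908 bp) and 61919863 to 61920733 (802 bp and 824 bp). These were spread over the arm.

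On the proximal q arm the first was at 45973110 to 45974113 (1004 bp and 994 bp). Next came 29034786 to 29036117 (1332 bp and 954 bp), 27139114 to 27140087 (899 bp and 928 bp), 27619515 to 27620454 (940 bp and 887 bp) and 42295831 to 42296860 (863 bp and 947 bp). The 5 of the p arm were at 1388739 to 1389633 (895 bp and 811 bp), 13965002 to 13965837 (834 bp and 778 bp), 4850617 to 4851424 (805 bp and 761 bp), 908783 to 909582 (800 bp and 760 bp) and 1012171 to 1012993 (823 bp and 752 bp). Of these 5, 4 lay in the first 5 Mb of the arm, which held 43.5% of its shared regions. The highest width of a shared peak in replicate 2 was 811 bp on the p arm, 994 bp on the proximal q arm and 1142 bp on the distal q arm, while in replicate 1 it was 1290 bp, 1332 bp and 1255 bp.

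**Figure D4:**
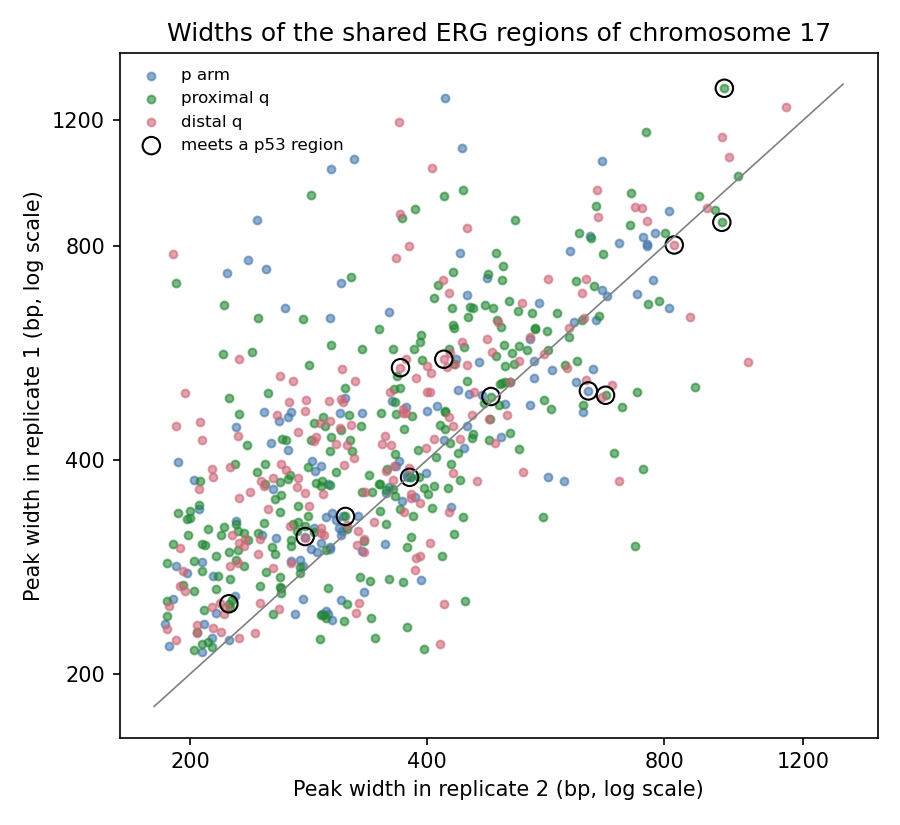
Peak width in replicate 1 (y axis, bp, log scale) against replicate 2 (x axis, bp, log scale) for the 571 shared ERG regions of chromosome 17, coloured by part. The grey line marks equal widths, most points lie above it since replicate 1 peaks were wider in 75.4% of the pairs, and circles mark the 12 regions that met a p53 region.

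Neighbouring ERG sites were then measured by their spacing. The nearest other shared region lay a median of 33.1 kb away on the p arm, 29.2 kb on the proximal q arm and 18.9 kb on the distal q arm. Shared regions with a neighbour within 10 kb made up 35.1% on the p arm (46 of 131), 22.6% on the proximal q arm (60 of 265) and 36.0% on the distal q arm (63 of 175). Close neighbours come in pairs, so runs of regions at most 10 kb apart were compared as single units beside lone regions. Runs made up 20 of 105 units on the p arm (19.05%), 27 of 232 on the proximal q arm (11.6%) and 29 of 141 on the distal q arm (20.6%). The p arm was not separated from the proximal q arm by this measure (7.41 points, Newcombe interval -0.541 to 16.7). With the dense window included, the share on the distal q arm was above that on the proximal q arm by 8.93 points (1.39 to 17.1). That window was picked for its shared regions, so this interval is a description and cannot separate the distal from the proximal q arm. The share of runs without the window was not computed. Without it, 31.7% of the shared regions of the distal q arm had a neighbour within 10 kb (45 of 142). Within 100 kb the order followed density, with 77.9%, 84.5% and 90.9% on the p arm, the proximal q arm and the distal q arm.

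Runs in which each shared region followed the last by at most 10 kb were short. The longest held 4 shared regions and lay on the proximal q arm at 27046923 to 27056251, within 9.33 kb, with narrower widths of 356 bp to 584 bp. All other runs held 2 or 3, and those of 3 or more numbered 6 on the p arm, 5 on the proximal q arm and 5 on the distal q arm. On the p arm they included 1944963 to 1957689 and 4843476 to 4852435, and 0 lay in the dense window. The tightest of the runs of 3, named after its values were seen, was on the proximal q arm at 48226984 to 48229716, with 3 shared regions in 2.73 kb, each at least 482 bp wide in both lists.

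The window from 79 to 80 Mb held 42 ERG regions, of which 33 were shared, 8 were in replicate 1 alone and 1 was in replicate 2 alone. Its 33 shared regions are 4.69 times the chromosome's mean of 7.03 per Mb and 18.9% of the shared regions of the distal q arm, whose other full windows had a mean of 7.05. Replicate 1 had 41 peaks there and replicate 2 had 35. Of the merged regions 78.6% were shared, against 60.4% in the rest of the distal q arm, and 34 of the 35 replicate 2 peaks (97.1%) overlapped a replicate 1 peak. These shares carry no test, since the window was picked for its shared regions.

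Within the window the shared regions were spread over 9 of its 10 blocks of 100 kb. In order of position the blocks had 3, 0, 4, 7, 4, 2, 4, 1, 5 and 3 shared regions. All 7 regions between 79300001 and 79400000 and all 8 between 79800001 and 80000000 were shared. The block from 79100001 to 79200000 held 2 regions, both of them in 1 list alone. The median gap between neighbouring shared regions was 20.3 kb, 18 of the 33 had another within 10 kb, and all 33 had one within 100 kb.

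Recurring peaks of the window had a median width of 447 bp in replicate 1 and 371 bp in replicate 2, beside 421 bp and 326.5 bp in the rest of the distal q arm. All peaks of the window spanned 223 bp to 1196 bp in replicate 1 and 192 bp to 735 bp in replicate 2, and those of the rest spanned 220 bp to 1255 bp and 187 bp to 1142 bp. The broadest by the narrower replicate were at 79818316 to 79819281 (908 bp and 735 bp), 79849124 to 79850000 (877 bp and 660 bp), 79650747 to 79651352 (564 bp and 563 bp), 79455164 to 79455864 (509 bp and 686 bp) and 79268879 to 79269502 (624 bp and 492 bp). By the same measure the first of these ranked 257th among the shared regions of the genome. The region at 79481353 to 79482548 had a single peak of 1196 bp in replicate 1 and 2 peaks in replicate 2. By the narrower peak, 0 of the 5 broadest regions of the distal q arm lay in the window.

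**Figure D5:**
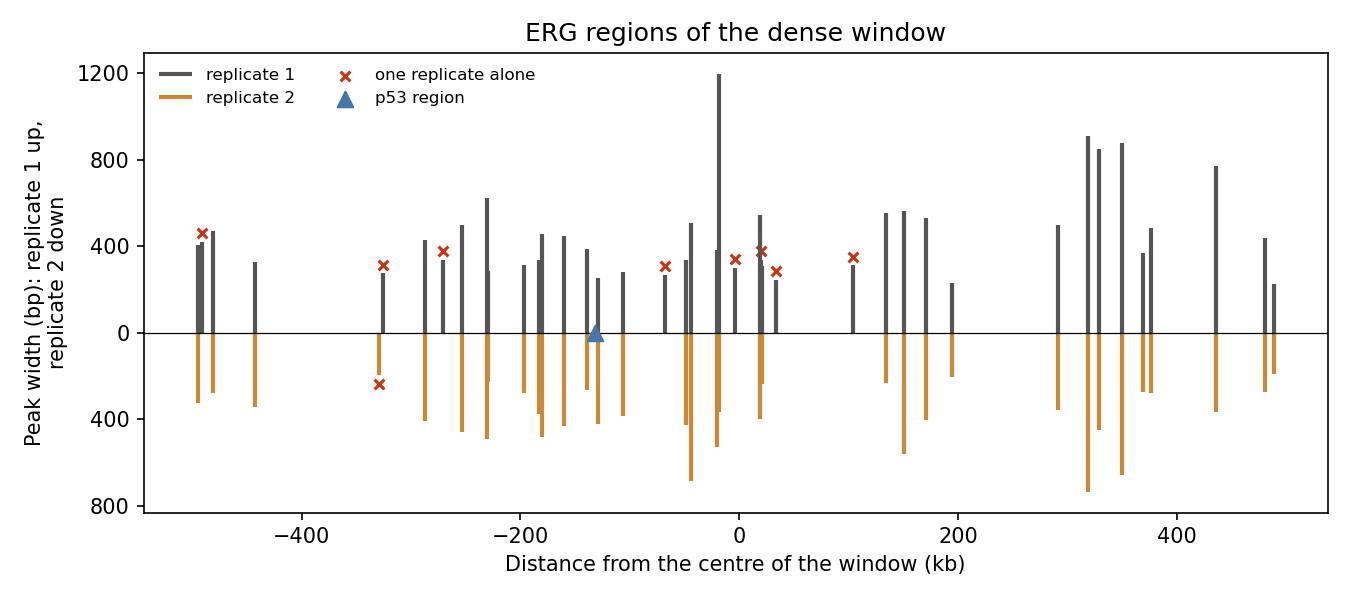
Width in bp of each ERG peak (y axis, replicate 1 upward and replicate 2 downward) in the dense window, by distance in kb from the centre of the window (x axis). Crosses mark the 9 regions found in 1 replicate alone, and the triangle marks the single p53 region of the window, which lay beside and not on an ERG region.

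The peaks of p53 were then laid over the ERG regions, to find sites held by both factors. The deposited p53 lists are far shorter than the ERG lists, and the study describes larger p53 peak sets, so the counts hold for these lists alone. There were 20 p53 regions on chromosome 17, of which replicate 1 alone gave 15, replicate 2 alone gave 2, and 3 were common to both. By part, 3 lay on the p arm, 10 on the proximal q arm and 7 on the distal q arm.

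Of the 20, 12 overlapped a shared ERG region (60%, 38.7% to 78.1%), beside 40.5% of all p53 regions of the genome. Against the p53 regions of other chromosomes (121 of 308, 39.3%) the difference was 20.7 points, with a Newcombe interval that included 0 (-1.34 to 39.6). Another 2 overlapped an ERG region of 1 replicate, and 6 overlapped none. Overlap with shared ERG was found for 2 of 3 p53 regions on the p arm, 7 of 10 on the proximal q arm and 3 of 7 on the distal q arm, numbers too small to separate the parts. Conversely, p53 met 12 of the 571 shared ERG regions (2.10%, 1.21% to 3.64%), beside 1.41% of all shared ERG regions.

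Of the 3 p53 regions found in both replicates, 1 overlapped ERG. It lay on the proximal q arm at 30771243 to 30771574 (250 bp and 198 bp), on an ERG region that was narrow (251 bp and 224 bp). The second, at 27229957 to 27230266 (224 bp and 245 bp), lay 191 bp from a shared ERG region, the last of a run of 3. The remaining one, on the distal q arm at 80318320 to 80318796 (215 bp and 300 bp), was 412 bp from an ERG region of replicate 2 and 23676 bp from a shared one. That replicate 2 ERG region, at 80317600 to 80317907, was itself met by a further p53 region at 80317799 to 80318019.

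On the p arm, p53 peaks met shared ERG regions at 1588056 to 1588393 (312 bp and 280 bp) and 6917735 to 6918375 (500 bp and 641 bp). The other p53 region of this arm, at 19091398 to 19091591, met a broad ERG region of replicate 1 alone (924 bp). On the proximal q arm the ERG regions met by p53 included 2 of its 5 broadest, those at 29034786 and 42295831. The others began at 31149447, 34889985, 45727074 and 48228265, beside the one at 30771337 given above. On the distal q arm they were those at 61919863, again 1 of its 5 broadest, 62915216 and 80231194. All of these p53 peaks except those at 1588112 and 34890656 (replicate 2 alone) and 30771243 (both) were in replicate 1 alone.

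Median widths of the 12 shared ERG regions with p53 were 496.5 bp in replicate 1 and 451 bp in replicate 2, beside 413 bp and 340 bp for the 559 that were not met. The ranges overlapped, at 251 bp to 1332 bp and 215 bp to 1290 bp in replicate 1. A wide region has more room to overlap a peak, and whether p53 met broad regions beyond this was not tested.

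No overlap of p53 and ERG was found in the dense window. Its only p53 region, at 79367747 to 79367932 in replicate 1 alone, was 2422 bp from the nearest ERG region, and 0 of the 33 shared ERG regions there met p53, a count that allows a share of up to 9.09% by the limit of 3 counts. The 3 remaining p53 regions without ERG lay 65112 bp (31899319), 49373 bp (59539183) and 41107 bp (76572913) from the nearest ERG region of either list.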

How the data were processed

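Peak lists of 2 ERG and 2 p53 samples were used. No list of the input sample was used here. Per the submitters' processing notes, the authors used CASAVA 1.4, aligned reads to hg19 (GRCh37) with Bowtie2 2.3.3.1 and called peaks with MACS2, and each sample has its own list. The study's methods name another Bowtie2 version, both builds and several p-value thresholds. The deposited lists give, per the files themselves, 4 columns, namely chromosome, start, end and name, with no score or read count, so depth behind a peak was not used. Replicates are called biological by the study, and the labels do not say whether cultures were separate.

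ERG peaks overlapping by at least 1 bp were merged and placed by midpoint. The chromosome ends at its outermost peak (81178136). Shares carry Wilson, differences Newcombe and density ratios exact conditional intervals (95%). Merging and intervals were tested on simulated data. Members, parts and lists were chosen with earlier results of these data known. Regions named are the 5 broadest shared ones of each part and of the dense window, the windows with most shared regions, the longest runs and empty stretches, and every p53 region. Alternatives were a reciprocal overlap, other borders, wider peaks, other windows and single lists. GC content, motifs and gene names need an hg19 genome and were not used. Python 3.11.15, numpy 2.4.6, scipy 1.17.1 and matplotlib 3.10.9 were used.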

Additional observations from a re-analysis of the deposited data

How the results depend on the processing

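Of 58 values under alternative settings, 46 kept within the tolerance, 10 moved past it and 2 changed direction. The tolerance was 1.5 times for a count, the 95% interval for a share or density ratio and the SD between the lists for a width. The density of the distal q arm over the proximal q arm turned from 1.09 to 0.93 when the dense window was left out and to 0.89 with the border at 55 Mb. With the border at 65 Mb it was 1.23. The p arm stayed the sparser, at 0.71 to 0.81 times the proximal q arm, under all 7 of its alternatives. With ERG peaks of at least 300 bp only, shared regions numbered 76, 152 and 99 on the p arm, proximal q arm and distal q arm and 20 in the dense window, and recurrence was 53.5%, 55.3% and 48.8%. Both lists were filtered before merging, so a wide peak whose partner was below 300 bp counted as not shared. These shares therefore do not give the recurrence of wide peaks. With a reciprocal overlap of 50%, recurrence was 55.7% on the p arm, 58.6% on the proximal q arm and 56.0% on the distal q arm. Leaving out each list in turn gave 3 to 13 p53 regions on an ERG region: without p53 replicate 1 there were 3 of 5, without p53 replicate 2 there were 10 of 18, and without ERG replicate 1 there were 13. Windows shifted by 0.5 Mb to either side of the dense one had 22 and 30 shared regions.

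No paired analysis was possible because no comparison of the parts rests on a test, and shared regions already join the lists. Absence of a site from a list says only that no peak was called. Gene density, copy number and alignability along the chromosome were not used.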
